A study of Mus musculus with 48 samples.

Results

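The 10 genes described here encode proteins that store triglyceride in lipid droplets and release it again: Pnpla2, Lipe, Mgll, G0s2, Plin1, Plin2, Plin4, Plin5, Cidec and Adrb3. They were taken by gene symbol from the expression tables of 6 mouse tissues, in which 15541 genes were listed in at least 1 tissue. All 10 were listed in white adipose tissue (WAT), 9 in liver (not Plin1), 9 in muscle (not Adrb3), 6 in duodenum, 6 in jejunum (in both, Pnpla2, Lipe, Mgll, G0s2, Plin2 and Cidec) and 5 in ileum (those without G0s2). A table listed a gene only where it reached 1 CPM (the share of a library's counts that a gene takes, scaled to a fixed total) in a number of libraries no lower than the size of the smaller group, so a gene that is not listed was below that level and was not measured as 0. Each gene had 1 Ensembl ID.

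The mice were male C57Bl6 with diet-induced obesity from a high fat diet. They had either Roux-en-Y gastric bypass (RYGB), which connects a pouch cut from the stomach directly to the jejunum and leaves the duodenum out of the path of food, or sham surgery. All mice, sham included, then received a liquid elemental diet, were fasted overnight and were killed in the morning 9 days after surgery. The labels also name a transfer back to high fat diet and do not say whether it preceded the collection at day 9, nor whether the sham mice were matched for weight or food. Subcutaneous WAT, liver and gastrocnemius muscle had 4 RYGB and 4 sham libraries each, duodenal and jejunal villi 3 and 4, and ileal villi 5 and 5, which made 48 libraries of whole tissue or scraped villi. The labels do not say whether a library stands for 1 animal, so the p values measure the spread between libraries.

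Lipolysis takes triglyceride apart in steps. ATGL (Pnpla2) removes the first fatty acid, hormone-sensitive lipase (Lipe) cleaves the diglyceride that remains, and monoglyceride lipase (Mgll) releases the last fatty acid and glycerol. G0s2 binds ATGL and inhibits it, perilipins (Plin1, Plin2, Plin4 and Plin5) coat the droplet and control access of the lipases, Cidec lets droplets fuse into larger ones, and Adrb3 is the beta-adrenergic receptor through which noradrenaline starts lipolysis in adipocytes. Perilipin 1 is the main coat of adipocyte droplets, perilipin 2 is found in most cells that hold lipid, and perilipin 5 is known from tissues that burn fatty acids, such as muscle, heart and liver. Enterocytes also form droplets when they absorb fat.

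Of the 45 combinations of gene and tissue, 6 passed the test of RYGB against sham (adjusted p under 0.05 by limma with Benjamini-Hochberg adjustment over all genes of the tissue, and a fold change of at least 1.5). Mgll and Plin4 fell in WAT, Pnpla2 rose in liver, Lipe fell in jejunum, and Mgll and Cidec rose in ileum. The background differed greatly between tissues. In WAT 2 of 10 genes passed, where 24.1% of all genes tested did. In liver 1 of 9 passed against 7.08% of all genes, in jejunum 1 of 6 against 9.75%, and in ileum 2 of 5 against 6.05%. In muscle 0 of 9 and in duodenum 0 of 6 passed, where limma called 0.0% (0 of 11966 genes) and 0.00922% (1 of 10850 genes). Without adjustment, 3 of the 9 genes in muscle and 2 of the 6 in duodenum had p under 0.05, beside 1746 and 2040 of all genes. The median log2 fold change of the genes was -0.54 in WAT (all genes 0.11), 0.19 in liver (0.13) and 0.31 in muscle (0.05). Along the intestine it was -0.50 in duodenum (0.12), -0.97 in jejunum (-0.04) and 0.61 in ileum (-0.09). These medians are of the log2(CPM + 1) scale, as are all log2 fold changes below, which understate the change of genes near 1 CPM. Each table was normalized on its own, so no test was made of a difference in effect between tissues.

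**Figure D1:**
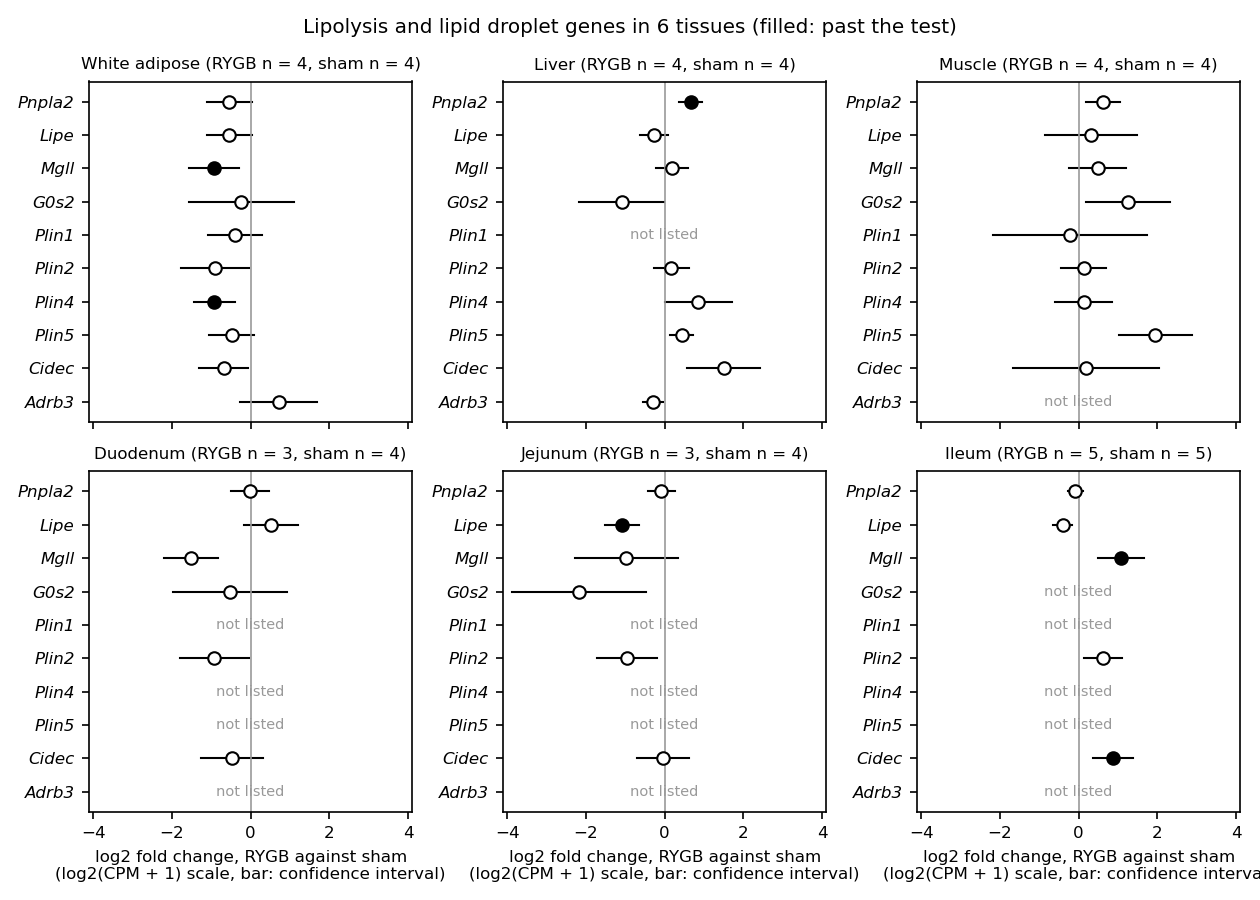
Log2 fold change of each gene in RYGB against sham in 6 tissues, on the log2(CPM + 1) scale, with 95% intervals from limma. Filled circles passed the test (Mgll and Plin4 in white adipose tissue, Pnpla2 in liver, Lipe in jejunum, Mgll and Cidec in ileum). In white adipose tissue 9 of 10 estimates lie below 0, and in jejunum all 6. Of these 6, G0s2 was listed in jejunum only through sham libraries, and Cidec is at -0.04.

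By level, the genes were foremost genes of WAT. In the sham libraries 9 of the 10 genes had their highest median CPM there, and for each of these 9 no library of the next tissue reached the lowest WAT library. Plin5 was the exception, with a median of 36.4 CPM in liver, 12.2 in WAT and 6.6 in muscle, the last 2 of which overlapped. Pnpla2 had a sham median of 1583.0 CPM in WAT, then ileum (156.3), muscle (151.1), duodenum (145.2) and jejunum (142.1), 4 tissues whose ranges overlapped from each to the next, and liver (51.2), which lay apart. Lipe followed WAT (1665.6 CPM) with ileum (241.0), jejunum (197.8), duodenum (106.0), muscle (20.0) and liver (19.0), each overlapping the next. Mgll was ordered differently, with liver after WAT (180.8 against 1376.6 CPM), then muscle (41.6) and duodenum (21.0), each apart from the tissue above it, and jejunum (4.6) and ileum (4.5), whose ranges overlapped from duodenum downward. The tables were scaled separately, so these orders are a description.

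Per length of exon, which allows genes to be compared within a tissue, Cidec was the most abundant of the genes in sham WAT, with a median of 931 CPM per kb, followed by Plin4 (606), Pnpla2 (524), Lipe (283), Mgll (271), Plin1 (221), Plin2 (191), G0s2 (185), Adrb3 (38.0) and Plin5 (5.85). In sham liver Plin2 led with 115 CPM per kb, followed by G0s2 (63.0) and Mgll (35.6). In sham muscle Pnpla2 (50.0) and Plin4 (23.8) led. In the intestine the droplet fusion gene Cidec was among the most abundant, with 84.8 CPM per kb in sham duodenum, 79.8 in jejunum and 51.2 in ileum, where Pnpla2 had 48.1, 47.1 and 51.8.

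To show where transcription of the 5 genes that passed a test begins, the 250 bases before the annotated start are given for each of them, in the direction of the gene. RefSeq sequences of the GRCm38.p6 build were found for 9 of the 10 genes (not Adrb3), with 13 starts in all, and where a gene has several, the start listed at the top of the table is shown. Capitals mark matches to short motifs on either strand: the nuclear receptor half-site AGGTCA, the forkhead motif TGTTTAC, the cAMP response element TGACGTCA, the E-box CACGTG, the GC box GGGCGG and the CCAAT box CCAAT. These are chr7:141454938-141455187 (plus strand) for Pnpla2, chr7:25395988-25396237 (minus strand) for Lipe, chr6:88724162-88724411 (plus strand) for Mgll, chr17:56109783-56110032 (minus strand) for Plin4 and chr6:113435761-113436010 (minus strand) for Cidec.
Pnpla2: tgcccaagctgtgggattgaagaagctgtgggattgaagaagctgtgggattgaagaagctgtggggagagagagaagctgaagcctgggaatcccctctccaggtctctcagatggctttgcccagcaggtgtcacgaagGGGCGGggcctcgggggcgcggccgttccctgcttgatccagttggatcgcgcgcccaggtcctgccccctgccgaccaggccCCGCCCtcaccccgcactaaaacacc
Lipe: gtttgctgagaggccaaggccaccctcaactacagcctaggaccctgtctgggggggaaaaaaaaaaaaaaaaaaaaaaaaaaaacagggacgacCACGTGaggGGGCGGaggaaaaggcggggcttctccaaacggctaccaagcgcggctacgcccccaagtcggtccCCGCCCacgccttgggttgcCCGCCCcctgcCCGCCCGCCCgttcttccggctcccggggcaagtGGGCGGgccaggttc
Mgll: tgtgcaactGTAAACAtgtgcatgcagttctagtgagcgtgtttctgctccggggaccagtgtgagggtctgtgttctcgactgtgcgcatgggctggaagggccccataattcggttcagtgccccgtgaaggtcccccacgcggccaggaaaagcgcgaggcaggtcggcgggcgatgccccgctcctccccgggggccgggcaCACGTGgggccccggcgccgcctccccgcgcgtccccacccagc
Plin4: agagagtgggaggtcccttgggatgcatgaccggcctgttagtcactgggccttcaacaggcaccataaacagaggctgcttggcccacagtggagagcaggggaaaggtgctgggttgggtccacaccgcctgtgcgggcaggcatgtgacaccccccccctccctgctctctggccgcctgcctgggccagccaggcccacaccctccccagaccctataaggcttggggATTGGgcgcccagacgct
Cidec: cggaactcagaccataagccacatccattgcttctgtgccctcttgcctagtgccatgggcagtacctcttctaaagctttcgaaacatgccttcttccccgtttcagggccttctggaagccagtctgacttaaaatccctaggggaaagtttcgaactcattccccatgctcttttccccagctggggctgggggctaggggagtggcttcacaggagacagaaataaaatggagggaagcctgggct

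The Lipe window held 1 E-box and 6 GC boxes, of which a pair overlapped, the Mgll window 1 forkhead motif and 1 E-box, the Pnpla2 window 2 GC boxes, the Plin4 window 1 CCAAT box, and the Cidec window none of the 6 motifs. Over all 13 starts, the half-site was found in 2 (Plin2 and Plin5), the forkhead motif in 2 (Mgll and the other start of Lipe), the E-box in 2 (Mgll and Lipe), the GC box in 6, the CCAAT box in 3 (Plin2, Plin4 and Plin5) and the cAMP response element in 0. Of all 32851 promoter windows of this length, 14.0% held the half-site, 3.17% the forkhead motif, 1.55% the cAMP response element, 6.02% the E-box, 32.7% the GC box and 33.8% the CCAAT box. A match is a match of letters and was not measured as binding.

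Pnpla2, the lipase that acts on triglyceride itself, rose in liver. It lies on chromosome 7 (141455198 to 141460743, plus strand, GRCm38). The RYGB livers had 78.6, 99.6, 72.2 and 90.5 CPM and the sham livers 48, 53.9, 63.0 and 48.5 CPM. Every RYGB library was higher than every sham library, as was the case in one direction or the other for 3 of the 9 genes and 16.4% of all genes in liver. Among the 3 was Cidec, which met the listing limit in liver through RYGB. The means of Pnpla2 were 85.2 ± 12.2 and 53.4 ± 6.97 CPM (SD, n = 4 each), a log2 fold change of 0.66 (SE 0.13, adjusted p = 0.0158 by limma), or 1.58-fold. Within the 3 sequencing lanes that held both groups the log2 difference was 0.54, 0.84 and 0.74. With median-ratio scaling of the libraries, which sets the median change of all genes in liver to about 0, the log2 fold change was 0.51 and the adjusted p 0.0521. It kept adjusted p under 0.05 when any of the 8 libraries was left out (0.0122 to 0.0493).

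In muscle Pnpla2 had 237.0, 179.0, 341.8 and 198.2 CPM in RYGB and 165.6, 136.6, 180.6 and 126.7 CPM in sham libraries. The groups overlapped by 1 library on each side. The log2 fold change was 0.61 (SE 0.20, 95% interval 0.18 to 1.05) with an adjusted p of 0.203 by limma, in a tissue where no gene passed. In WAT its means were 1077 ± 278 CPM in RYGB and 1552 ± 325 CPM in sham (log2 fold change -0.54, adjusted p = 0.112 by limma). In the 3 intestinal segments the estimates for Pnpla2 were -0.02 in duodenum (95% interval -0.49 to 0.46), -0.09 in jejunum (-0.43 to 0.25) and -0.08 in ileum (-0.27 to 0.11), with intervals that leave out a change of 1.5-fold in either direction.

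Lipe, hormone-sensitive lipase (chromosome 7, 25379527 to 25398710, minus strand), fell in jejunum. The RYGB villi had 107.8, 75.9 and 88.4 CPM and the sham villi 190.3, 151.5, 205.3 and 232.2 CPM. The groups did not overlap, which held for 3 of the 6 genes in jejunum and for 22.2% of all genes there. Among the 3 was G0s2, which was listed in jejunum only through its sham libraries. The means of Lipe were 90.7 ± 16.1 (SD, n = 3) and 194.8 ± 33.7 CPM (SD, n = 4), a log2 fold change of -1.09 (SE 0.20, adjusted p = 0.00828 by limma), 2.13-fold lower. The adjusted p stayed under 0.05 in each of the 13 alternative analyses (0.00658 to 0.0425). Among the 4 sham and 2 RYGB libraries of the same lane the log2 difference was -0.97.

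In ileum Lipe was also lower in every RYGB library, with 171.3 to 210.4 CPM (median 176.3) against 216.2 to 307.7 CPM (median 241.0). Of the 5 genes in ileum 3 did not overlap between groups, against 9.34% of all genes. The log2 fold change of -0.41 (SE 0.11) had an adjusted p of 0.0496 by limma, but at 1.33-fold lower it did not reach the fold change of 1.5. Sequencing lane and surgery coincide in ileum and cannot be told apart. In duodenum Lipe had 134.4, 187.4 and 154.1 CPM in RYGB and 69.0, 110.2, 101.7 and 183.7 CPM in sham (log2 fold change 0.52, 95% interval -0.16 to 1.20, adjusted p = 0.375 by limma). In WAT the RYGB mean was 1162 ± 334 and the sham mean 1639 ± 173 CPM (log2 fold change -0.54, adjusted p = 0.113), in liver the log2 fold change was -0.27 (95% interval -0.64 to 0.09) and in muscle 0.31 (-0.85 to 1.48). In muscle the sham values were 16.7, 14.8, 96.1 and 23.2 CPM, and the high value was that of sham replicate 3, which is described below.

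Mgll, the last lipase of the chain (chromosome 6, 88724412 to 88828360, plus strand), fell in WAT and rose in ileum. In WAT it had 911.6, 761.7, 812.9 and 402.7 CPM in RYGB and 1038.3, 1206.2, 1546.9 and 1548.8 CPM in sham. All RYGB libraries were below all sham libraries, which was true of 2 of the 10 genes and, in either direction, of 41.2% of all genes in WAT. The means were 722 ± 222 and 1335 ± 255 CPM (SD, n = 4 each), a log2 fold change of -0.93 (SE 0.28, adjusted p = 0.0293 by limma), 1.91-fold lower. The adjusted p by limma rose above 0.05 without RYGB replicate 3 (0.0501), sham replicate 2 (0.0584), sham replicate 3 (0.0732) or sham replicate 4 (0.0759), while the log2 fold change stayed between -1.06 and -0.67 over all libraries left out.

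In ileum Mgll had 8.6, 9.4, 6.8, 13.6 and 19.4 CPM in RYGB and 2.8, 4.5, 6.1, 6.0 and 4.3 CPM in sham. Every RYGB library was higher, although the levels were far under those of WAT. The means were 11.6 ± 5.04 and 4.74 ± 1.37 CPM (SD, n = 5 each), a log2 fold change of 1.08 (SE 0.26, adjusted p = 0.031 by limma), or 2.11-fold. This call was lost without RYGB replicate 2 or 4 or without sham replicate 1, 2, 3 or 5 (adjusted p by limma 0.0505 to 0.0737), with log2 fold changes of 0.88 to 1.23 over all libraries left out. All RYGB libraries of the ileum were sequenced in another lane than the sham libraries, so there the lane cannot be told apart from surgery.

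In the upper intestine Mgll pointed the other way without passing the test. In duodenum it had 7.4, 4.3 and 8.7 CPM in RYGB and 21.6, 30.8, 20.5 and 13.2 CPM in sham, with no overlap, the only such gene of 6 there against 15.6% of all genes. The log2 fold change was -1.52 (SE 0.30, 95% interval -2.20 to -0.83) with an adjusted p of 0.118 by limma, and 0.0184 without sham replicate 4. In jejunum the values were 2.5, 3.7 and 4.2 CPM in RYGB and 4.3, 33.1, 4.7 and 4.5 CPM in sham, so that sham replicate 2 made most of the log2 fold change of -0.98 (adjusted p = 0.349 by limma). In liver (log2 fold change 0.19, 95% interval -0.23 to 0.60) and muscle (0.49, -0.23 to 1.21) the Mgll groups overlapped.

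**Figure D2:**
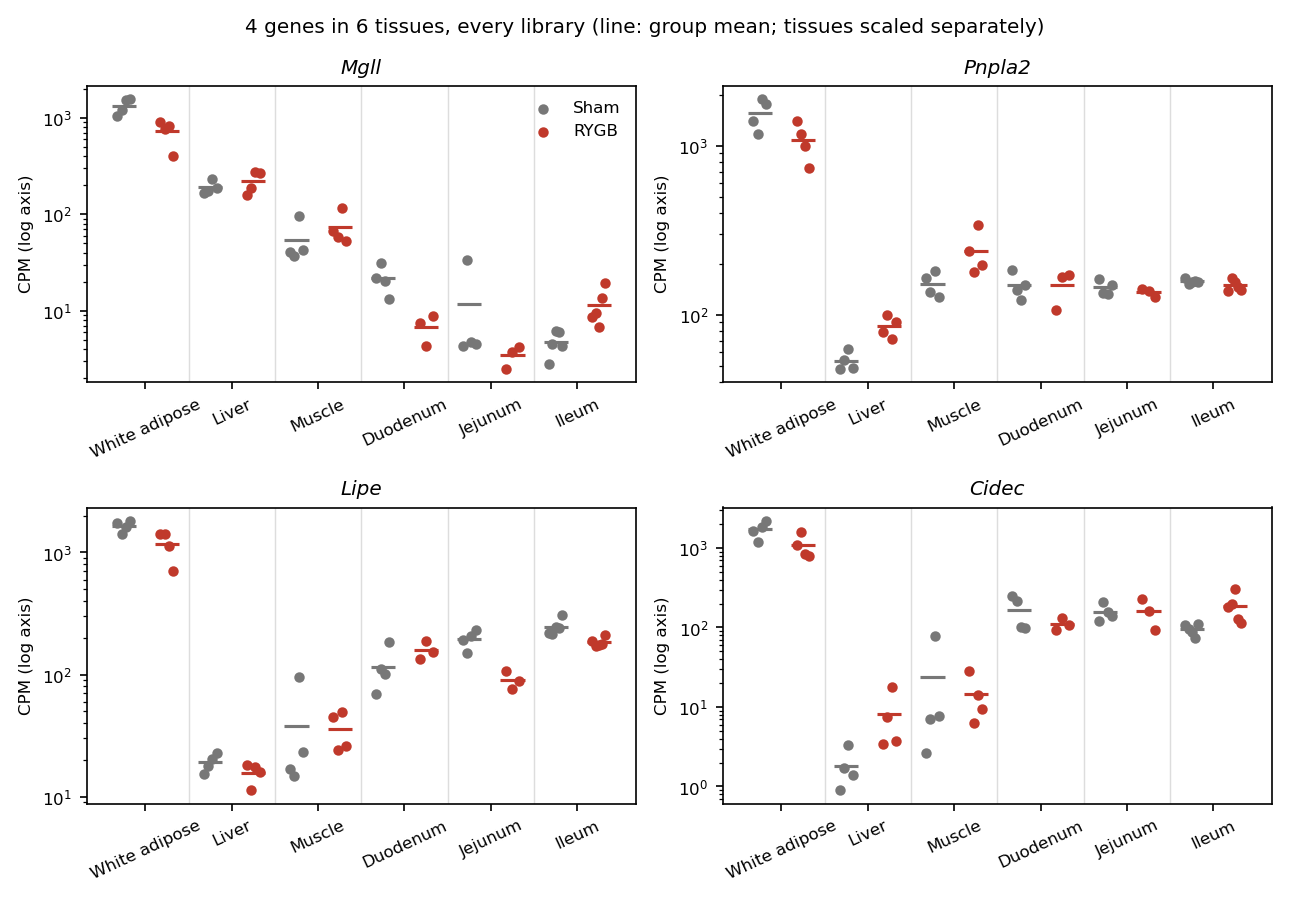
CPM of Mgll, Pnpla2, Lipe and Cidec in every library of 6 tissues (log axis, line for the group mean, RYGB red and sham grey). Mgll of RYGB libraries lies below sham in white adipose tissue, duodenum and jejunum and above sham in ileum, Pnpla2 is higher in RYGB liver (72.2 to 99.6 against 48 to 63.0 CPM), and Lipe is lower in RYGB jejunum.

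G0s2, the inhibitor of ATGL (chromosome 1, 193272161 to 193273217, minus strand), passed the test in none of the 5 tissues that listed it. In liver it had 35.3, 9.0, 62.9 and 21.0 CPM in RYGB and 41.2, 94.6, 36.6 and 68.6 CPM in sham, with a log2 fold change of -1.09 (95% interval -2.17 to -0.01, adjusted p = 0.18 by limma). In muscle it had 30.4, 54.7, 47.8 and 14.7 CPM in RYGB and 14.4, 10.1, 30.3 and 6.8 CPM in sham, with a log2 fold change of 1.25 (0.19 to 2.31, adjusted p = 0.271). The groups overlapped in both tissues, and the estimates had opposite signs. In jejunum G0s2 was listed at 0.1, 0.0 and 0.2 CPM in RYGB, which is the last digit of the table, against 0.8, 26.8, 1.5 and 3.8 CPM in sham. It reached the 1 CPM needed for listing only in sham libraries, so its lower level in RYGB is not read as a result and no fold is given. Its adjusted p was 0.105 by limma (0.0264 with a pseudocount of 0.1 CPM in place of 1). In duodenum the RYGB range was 2.1 to 7.0 and the sham range 3.1 to 24.9 CPM, and in WAT the means were 169 ± 87.4 and 184 ± 99.5 CPM, neither apart. In WAT the estimate of -0.24 turned to 0.36 without RYGB replicate 4, to 0.07 without sham replicate 1 and to 0.12 when libraries were scaled to adipocyte markers. G0s2 overlaps Lamb3 on the other strand, and the strand setting of the counting is not given in the sources used here.

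Because G0s2 acts on ATGL, the log2 ratio of Pnpla2 to G0s2 was also compared in the 5 tissues with both genes. In liver it was 1.68 ± 1.34 in RYGB and -0.08 ± 0.71 in sham (SD, n = 4 each), a difference of 1.76 with p = 0.0857 by a two-sided exact permutation test (0.214 after Benjamini-Hochberg adjustment over 5 tests). The liver libraries ranged from 0.20 to 3.33 in RYGB and from -0.80 to 0.77 in sham, and overlapped. In jejunum all RYGB libraries were above all sham libraries. The exact permutation p was 0.0571, the smallest that 3 against 4 libraries allow (0.214 adjusted). However, G0s2 reached the 1 CPM needed for listing there only in sham libraries, so this separation is not read as a result. No size is read from this difference, since G0s2 of the RYGB villi was at the last digit of the table and the added CPM sets it (2.09 with 1 CPM added and 4.18 with 0.1 CPM). In WAT (-0.30), muscle (-0.64) and duodenum (0.51) the exact permutation p was 0.657, 0.314 and 0.629. With 4 against 4 libraries the smallest possible p is 0.0286. The ratio compares 2 genes of unequal length, so its level has no meaning across genes and only its difference between groups was used.

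**Figure D3:**
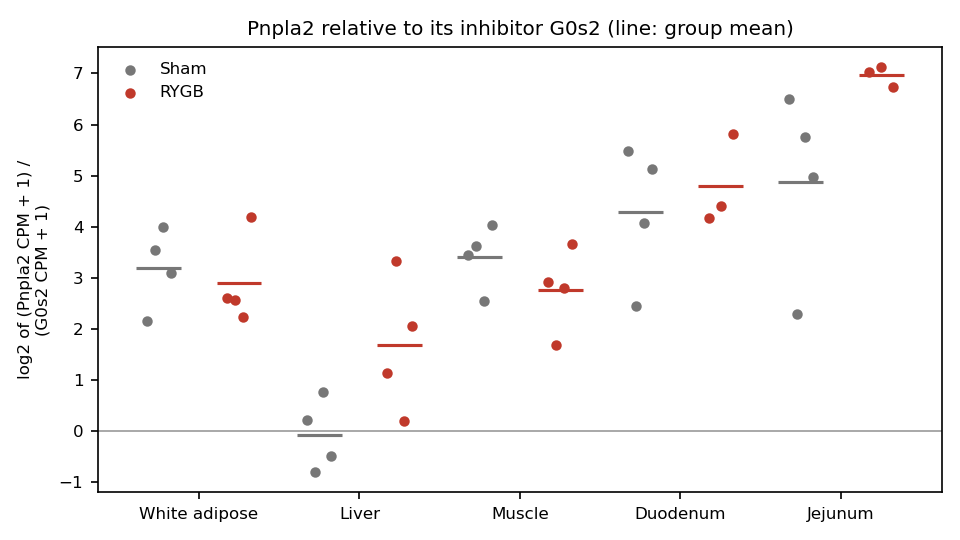
Log2 ratio of Pnpla2 to G0s2, with 1 CPM added to both, in every library of the 5 tissues that list both genes (line for the group mean, RYGB red and sham grey). The jejunal RYGB libraries lie above the sham libraries at a height set by the added CPM, since their G0s2 is near 0. G0s2 was listed in jejunum only through sham libraries. The groups overlap in the other tissues.

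Among the perilipins, Plin4, a coat protein of small droplets in adipocytes and muscle, fell in WAT. It lies on chromosome 17 (56100591 to 56109803, minus strand), 1797 bp from Plin5 with no gene annotated between them. The RYGB libraries had 1793.8, 2016.6, 2117.3 and 1443.8 CPM and the sham libraries 3281.5, 2927.3, 3716.4 and 3974.9 CPM. All RYGB libraries were below all sham libraries. The means were 1843 ± 298 and 3475 ± 464 CPM (SD, n = 4 each), a log2 fold change of -0.92 (SE 0.23, adjusted p = 0.0174 by limma), 1.89-fold lower. The adjusted p by limma was 0.0513 without sham replicate 4 and 0.0678 with lane as a covariate, and the log2 difference within the 2 lanes that held both groups was -0.58 and -1.46. Part of Plin4 overlaps Hdgfl2 on the other strand.

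The other perilipins of WAT did not pass. Plin1 had means of 842 ± 293 CPM in RYGB and 1063 ± 235 CPM in sham (log2 fold change -0.39, adjusted p = 0.318 by limma). Plin2 had 553.1, 488.9, 304.7 and 171.5 CPM in RYGB and 448.4, 530.1, 811.6 and 884.5 CPM in sham (log2 fold change -0.90, 95% interval -1.76 to -0.03, adjusted p = 0.0899). Its groups overlapped, and its adjusted p was 0.0463 without RYGB replicate 1. Plin5 was low in WAT, at 4.4 to 11.7 CPM in RYGB and 10.3 to 13.2 CPM in sham (log2 fold change -0.48, adjusted p = 0.152). Per length of exon, Plin4 made up 43.4% to 63.5% of the sum of Plin1, Plin2, Plin4 and Plin5 (Plin3 is not in it) in RYGB and 56.9% to 60.9% in sham WAT, and Plin1 23.6% to 33.8% and 16.6% to 29.8%.

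In muscle the largest estimate of any of the 10 genes was that of Plin5 (chromosome 17, 56111601 to 56117596, minus strand). It had 24.5, 16.9, 61.4 and 20.0 CPM in RYGB and 10.4, 4.3, 8.8 and 3.6 CPM in sham. Every RYGB library was higher, the only one of the 9 genes with groups apart in muscle, where 7.4% of all genes were. The log2 fold change was 1.94 (SE 0.41, 95% interval 1.02 to 2.87), or 3.85-fold, with an unadjusted p of 0.000908 and an adjusted p of 0.112 by limma, so it did not pass. Over the libraries left out the log2 fold change was 1.56 to 2.16 and the adjusted p 0.0568 to 0.301. Within the lane that held both groups the log2 difference was 1.46. Plin5 made up 20.9% to 35.1% of the sum of the same 4 perilipins per length in RYGB muscle and 4.97% to 13.2% in sham muscle, while Plin4 made up 51.1% to 60.6% and 60.9% to 71.8%. Plin4 (log2 fold change 0.13, 95% interval -0.60 to 0.85) and Plin2 (0.13, -0.45 to 0.70) overlapped between groups in muscle. Plin3, the perilipin outside the set, had 19.6 to 27.6 CPM in RYGB and 8.8 to 13.3 CPM in sham muscle (log2 fold change 1.06, adjusted p = 0.0621 by limma) and did not pass.

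In liver Plin5 was at 38.7, 49.9, 58.4 and 51.7 CPM in RYGB and 32.7, 39.2, 39.8 and 33.7 CPM in sham, and 1 RYGB library lay within the sham range. The log2 fold change was 0.43 (SE 0.14, adjusted p = 0.0707 by limma) and did not pass. Plin2, with 80.6% to 84.1% of the sum of Plin2, Plin4 and Plin5 per length in RYGB and 82.9% to 87.1% in sham, had means of 429 ± 111 and 377 ± 68.9 CPM (log2 fold change 0.17, 95% interval -0.27 to 0.61). Plin4 was low in liver, at 3.2, 6.8, 17.0 and 6.3 CPM in RYGB and 2.7, 2.3, 6.2 and 3.6 CPM in sham (log2 fold change 0.85, adjusted p = 0.186 by limma).

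In the intestine Plin2 was the only one of these 4 perilipins that was listed. In duodenum it had 76.2, 88.9 and 102.1 CPM in RYGB and 333.6, 193.5, 138.4 and 91.3 CPM in sham (log2 fold change -0.93, adjusted p = 0.244 by limma). In jejunum it had 80.9, 41.6 and 41.1 CPM in RYGB and 62.7, 161.8, 85.9 and 122.1 CPM in sham (log2 fold change -0.96, adjusted p = 0.111, and 0.0489 without RYGB replicate 1). In ileum the estimate had the opposite sign, with a median of 87.3 CPM in RYGB (65.6 to 114.2) and 50.6 CPM in sham (41.5 to 101.6), a log2 fold change of 0.61 (adjusted p = 0.104). In ileum the adjusted p by limma was 0.024 without sham replicate 5, the sham library with 101.6 CPM. The groups overlapped in all 3 segments.

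**Figure D4:**
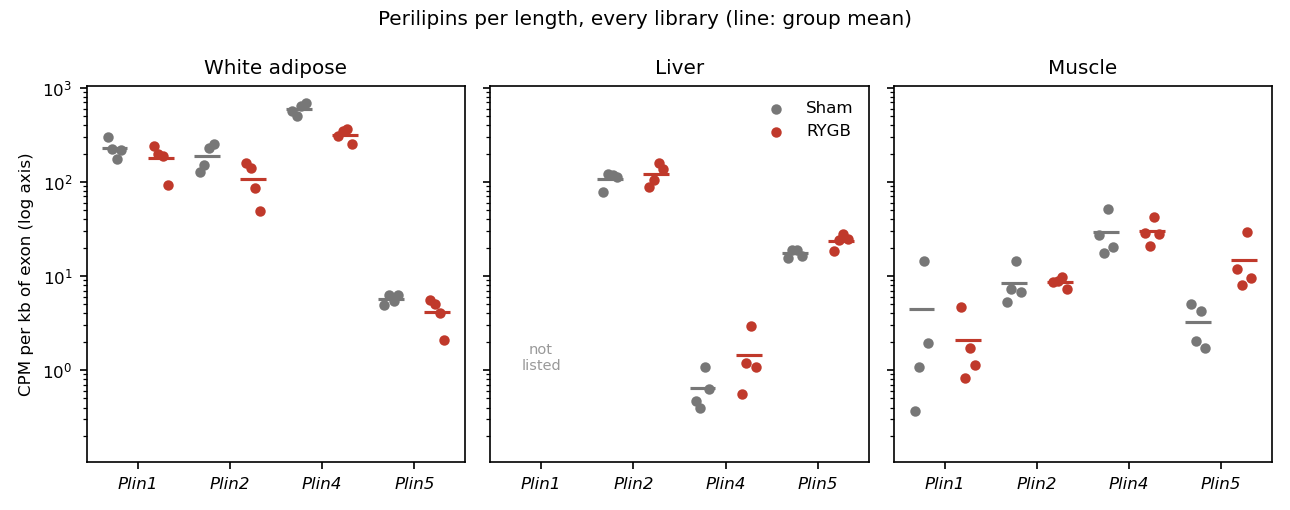
CPM per kb of exon of Plin1, Plin2, Plin4 and Plin5 in every library of white adipose tissue, liver and muscle (log axis, line for the group mean, RYGB red and sham grey). Plin4 is lower in RYGB white adipose tissue, and Plin5 of RYGB muscle lies above all sham muscle libraries. Plin1 was not listed in liver.

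Cidec, the droplet fusion gene (chromosome 6, 113424634 to 113435760, minus strand), rose in ileum. The RYGB villi had 182.9, 197.7, 305.0, 127.9 and 113.6 CPM and the sham villi 108.3, 95, 87.3, 74.3 and 110.7 CPM. All RYGB libraries were higher, the lowest of them only just. The means were 185 ± 75.7 and 95.1 ± 15.1 CPM (SD, n = 5 each), a log2 fold change of 0.88 (SE 0.23, adjusted p = 0.0409 by limma), or 1.84-fold. The call was lost when RYGB replicate 1 or 2 or any of the 5 sham libraries was left out (adjusted p by limma 0.0647 to 0.0951, log2 fold change 0.80 to 0.94) and with median-ratio scaling (0.0509). As for Mgll in ileum, the lane cannot be told apart from surgery here.

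In liver Cidec was near the lower limit of the table, with 3.4, 7.5, 18.0 and 3.7 CPM in RYGB and 0.9, 1.7, 3.3 and 1.4 CPM in sham. The groups did not overlap, and the log2 fold change of 1.49 (SE 0.42) had an adjusted p of 0.0524 by limma and did not pass. The adjusted p was 0.0434 with a pseudocount of 0.1 CPM, and 0.0267, 0.0434 and 0.0465 without RYGB replicate 1, RYGB replicate 4 or sham replicate 3. Sham replicate 1 was under 1 CPM, so Cidec met the listing limit in liver through RYGB. Its higher level in RYGB liver is therefore not read as a result. In WAT Cidec had means of 1078 ± 353 CPM in RYGB and 1710 ± 413 CPM in sham (log2 fold change -0.68, adjusted p = 0.077, and 0.0373 without RYGB replicate 2). In duodenum (log2 fold change -0.47, 95% interval -1.27 to 0.32), jejunum (-0.04, -0.71 to 0.62) and muscle (0.18, -1.68 to 2.03) the groups overlapped.

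Adrb3, the receptor (chromosome 8, 27225776 to 27250616, minus strand), was the only gene whose WAT estimate was above 0. It had 319.5, 300.4, 268.4 and 175.0 CPM in RYGB and 405.5, 155.3, 101.5 and 96.3 CPM in sham. A single sham library, replicate 1, was higher than all RYGB libraries, and the other 3 were lower than all of them. The log2 fold change was 0.71 (SE 0.43, adjusted p = 0.208 by limma) with all libraries and 1.17 (adjusted p = 0.0147) without sham replicate 1. In liver Adrb3 was listed at 11.7 to 13.8 CPM in RYGB and 13.9 to 18.3 CPM in sham, apart but close, with a log2 fold change of -0.30 (adjusted p = 0.128). There Adipoq, which marks adipocytes, was not listed, and Adrb3 overlaps an antisense gene.

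**Figure D5:**
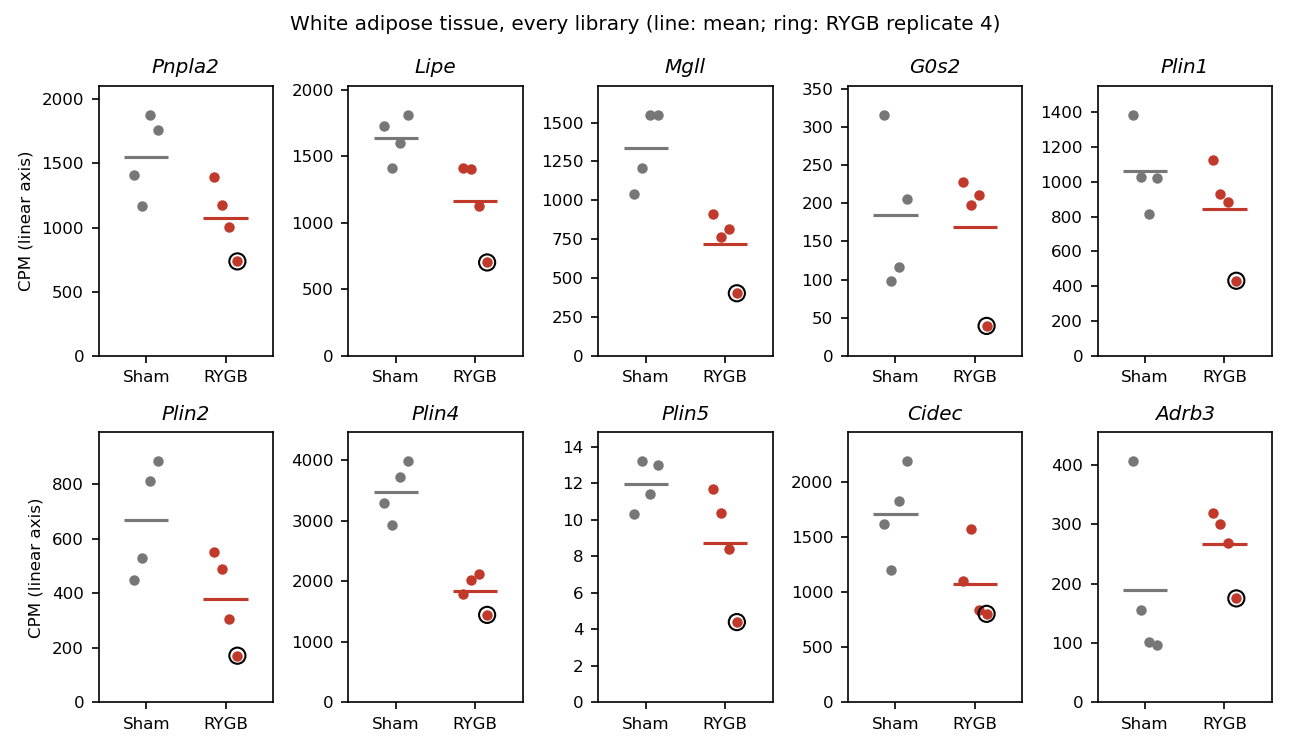
CPM of the 10 genes in every white adipose tissue library (linear axes from 0, line for the group mean, ring for RYGB replicate 4). RYGB replicate 4 is the lowest RYGB library for all 10 genes, and Plin4 and Mgll are the 2 genes whose groups do not overlap.

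Markers of several cell types differed between the RYGB and sham libraries of WAT, and the source of these differences was not tested. In bulk tissue, fewer cells of a type and less RNA per cell cannot be told apart. All 7 B cell markers and all 6 T cell markers rose, and the summed B cell markers were 826.7 to 2152.5 CPM in RYGB and 6.7 to 16.6 CPM in sham. In sham, Cd79a, Cr2, Pax5, Cd3d and Cd3g had libraries under 1 CPM, so these met the listing limit through RYGB. Of 11 adipocyte markers 1 fell (Lep, the hormone leptin) with a median log2 fold change of -0.47, and their sum was 9602.8 to 23041.9 CPM in RYGB and 20781.2 to 26928.8 CPM in sham. All 3 endothelial markers and 3 of 7 macrophage markers fell. Of the 3 keratinocyte markers listed in WAT 2 passed as lower. Krt5 was at 0.0 to 0.1 CPM in RYGB and 1.0 to 72.1 CPM in sham (adjusted p = 0.0107 by limma). Dsp was at 0.1 to 0.3 and 1.2 to 48.7 CPM (0.0116). Both reached the 1 CPM needed for listing only in sham libraries, so their fall is not read as a result. The 3 summed to 2.2 to 2.6 CPM in RYGB and 3.6 to 143.8 CPM in sham. The lowest adipocyte sum was that of RYGB replicate 4, with Adipoq at 863.8 CPM against 1464.5 to 1592.1 CPM in the other RYGB and 1692.4 to 2153.1 CPM in the sham libraries. This library was also the lowest RYGB library for all 10 genes described here. Without it Mgll had a log2 fold change of -0.67 (adjusted p = 0.0234 by limma) and Plin4 of -0.81 (0.0207), and both still passed. After each library was scaled to its adipocyte markers, the log2 fold change of Mgll was -0.56 (adjusted p = 0.191 by limma), of Plin4 -0.55 (0.207) and of Adrb3 1.08 (0.112). None of the 10 genes passed on that scale, on which 960 of all genes did, and the median change of all genes was 0.45.

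In muscle, sham replicate 3 had the highest levels of the defining adipocyte markers, with Adipoq at 119.0 CPM against 5.3 to 41.1 CPM in the other libraries and Lep at 99.8 against 1.1 to 9.9 CPM. The sum of all 11 adipocyte markers, which muscle partly expresses itself, was 740.1 to 2185.6 CPM in sham and 1141.5 to 2478.3 CPM in RYGB muscle, and none of the 11 passed the test. It had the highest sham value for 8 of the 9 genes listed, among them Plin1 (67.1 CPM against 1.7 to 9.1 in the other sham libraries) and Cidec (78.0 against 2.6 to 7.7), but not Plin5. Without it the log2 fold changes were 2.09 for Plin5 (adjusted p = 0.0596 by limma), 0.90 for Lipe and 0.80 for Mgll (0.104 each), 1.63 for G0s2 (0.0789) and 0.70 for Pnpla2 (0.106), while Plin1 turned from -0.21 to 0.70. None of these passed. Of the 7 markers of skeletal muscle fibre none passed the test (median log2 fold change -0.12, all genes 0.05). Their sum was 110645.7 to 142299.0 CPM in RYGB and 145233.3 to 178465.4 CPM in sham muscle, and most of that difference was in Myh4, the myosin of the fastest fibres (means 48660 and 71710 CPM). The myosins Myh2 (2674 against 425.5 CPM) and Myh1 (3421 against 1334 CPM) had estimates of the opposite sign. The part of these markers in the values of Plin5 and Pnpla2 was not tested.

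In the intestine 1 or 2 of the 11 adipocyte markers were listed and Adipoq was not, so adipocyte RNA was not detected by it at the limit of these tables. In jejunum, where Lipe fell, 1 of 6 enterocyte markers fell, the apolipoprotein Apoa4 (means 15420 against 40880 CPM), and the median of the 6 was -0.55, while the estimates of Sis (15300 against 11900 CPM) and Vil1 (4214 against 3675 CPM) had the opposite sign and did not pass. Their sum was 35688.3 to 62908.4 CPM in RYGB and 64850.0 to 88228.2 CPM in sham jejunum. In ileum, where Cidec and Mgll rose, 1 of the 6 rose, the fatty acid binding protein Fabp1 (6092 against 2625 CPM), with a median of 0.51 and a sum of 54717.8 to 76686.7 CPM in RYGB and 30369.3 to 60486.8 CPM in sham. The T cell markers fell in both segments (5 of 5 listed in jejunum and 4 of 4 in ileum). In RYGB, Cd3d in jejunum and Cd3e, Cd3g and Lck in ileum had libraries under 1 CPM. These met the listing limit through sham, so their fall is not read as a result. In liver, where Pnpla2 rose, 3 of 7 macrophage markers rose, as did 2 of 3 fibroblast markers, Col1a1 (log2 fold change 1.32, adjusted p = 0.0429 by limma) and Pdgfra (0.89, 0.0281). Among the 3 macrophage markers, Gpnmb was at 15.5 to 49.6 CPM in RYGB and 0.3 to 2.2 CPM in sham liver. It met the listing limit through RYGB, so its rise is not read as a result. Whether the makeup of the villi or liver moved the genes was not tested.

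Around the 10 genes, further genes of the pathway were described from lists. Of 10 genes for the ATGL co-activator, other inhibitors and other neutral lipid hydrolases, 3 fell and 0 rose in WAT (median log2 fold change -0.26, all genes 0.11). They were Lipa, the acid lipase of lysosomes (log2 fold change -1.03, adjusted p = 0.0154 by limma), Hilpda, another inhibitor of ATGL (-1.03, 0.0198), and Abhd12, a hydrolase of lysophospholipids and monoglyceride (-0.62, 0.0221). In liver 2 of 10 passed as lower, Pnpla3, a lipase relative of ATGL, and Ces1f, a carboxylesterase (-0.73, 0.0365). Pnpla3 was at 0.6 to 1.0 CPM in RYGB and 1.5 to 27.7 CPM in sham (adjusted p = 0.0292 by limma). It met the listing limit through its sham libraries, so its fall is not read as a result. In ileum Abhd6, another monoglyceride hydrolase, rose with 146.6 to 236.0 CPM against 75.5 to 115.8 CPM (log2 fold change 0.98, adjusted p = 0.00884), as Mgll did.

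Of 14 receptors and cAMP signalling genes that raise lipolysis, 4 fell in WAT (median -0.44). They were the adenylyl cyclases Adcy5 (log2 fold change -1.27, adjusted p = 0.0023 by limma), Adcy4 (-0.78, 0.0184) and Adcy3 (-0.64, 0.029) and the natriuretic peptide receptor Npr1 (-1.03, 0.00455). Of 12 receptors and enzymes that lower lipolysis, 3 fell and 1 rose in WAT (median -0.36). The natriuretic peptide clearance receptor Npr3 (-1.55, 0.0182), the lactate receptor Hcar1 (-0.78, 0.0225) and the insulin signalling gene Irs1 (-0.64, 0.0309) fell, and the alpha-adrenergic receptor Adra2a rose (0.85, 0.04), at 3.7 to 7.2 CPM against 1.2 to 3.9 CPM. In the other tissues the receptor and signalling lists had a single call, Prkacb, a catalytic subunit of protein kinase A, which fell in jejunum (-0.85, 0.0494).

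Of 11 genes for uptake, export and re-esterification, 2 fell in WAT: Aqp7, the glycerol channel (log2 fold change -1.16, adjusted p = 0.0144 by limma), and Angptl4, an inhibitor of lipoprotein lipase (-1.37, 0.048). In liver Lpl, lipoprotein lipase, rose from 30.2 ± 4.63 to 92.5 ± 23.3 CPM (1.56, 0.00185) and Gk, glycerol kinase, rose too (0.75, 0.00722). In jejunum 4 fell and 1 rose of 10 listed. Cd36, a fatty acid carrier, was at 14.0 to 55.3 CPM in RYGB and 298.2 to 426.9 CPM in sham (-3.85, 0.000693). Pck1, an enzyme on a path that supplies the glycerol backbone, was at 2.3 to 10.0 and 82.8 to 251.5 CPM (-4.48, 0.000862). Aqp7 fell (-2.52, 0.0487) and Lpin1 rose (1.24, 0.0179). In ileum Cd36 (-2.44, 0.00451) and Pck1 (-2.13, 0.0174) fell too, while Cidec and Mgll rose there.

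Of the other lipid droplet proteins, 8 were listed in WAT and none passed (median -0.10). In liver Hsd17b13, a hepatocyte droplet protein, rose (log2 fold change 0.66, adjusted p = 0.0421 by limma) and Fitm1 fell (-0.69, 0.0388). In jejunum Hsd17b11 fell from 906 ± 292 to 320 ± 56.6 CPM (-1.45, 0.00832). Of 9 regulators of the genes none passed in WAT, Srebf1 fell in liver (-1.63, 0.00771) and in jejunum (-2.10, 0.00203), and Ppara fell in jejunum (-1.02, 0.0359). In muscle and duodenum no gene of any of the 6 lists passed. Over the 6 lists 14 of 64 genes tested passed in WAT, or 21.9%, a share close to the 24.1% of all genes. In liver it was 7 of 58 (12.1%, all genes 7.08%), in jejunum 9 of 47 (19.1%, all genes 9.75%) and in ileum 3 of 47 (6.38%, all genes 6.05%). Of the 14 in WAT, 13 also passed with median-ratio scaling (not Adra2a) and 0 after scaling to adipocyte markers, with the direction of all 14 kept. With median-ratio scaling Hsd17b13 in liver and Aqp7 in jejunum did not pass, again with the same direction.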

How the data were processed

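The authors deposited 1 table of gene expression for each tissue. Nothing beside the tables names the unit, and the values were taken as CPM, made by the authors from reads counted per gene and rounded to 0.1, because the columns of 1 line per gene summed to between 925122 and 998777. HTSeq and the GRCm38 build are named in the submitters' processing notes, and the aligner and the strand setting are not given in the sources used here. The library kit preserves strand. Depth is unknown, since no counts could be recovered from rounded values, so no count model was used. In 8 columns repeated or damaged lines had broken this sum, so lines that repeat a gene were counted once and 12 damaged lines of the liver table were left out. No 2 libraries of a group were near identical (at most 3.14% of values equal over 74 pairs).

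In each tissue RYGB and sham were compared by limma (version 3.58.1, R 4.3.3, two-sided, empirical Bayes with a trend) on log2(CPM + 1). Genes under a mean of 1 CPM were left out. Benjamini-Hochberg adjustment covered all genes tested in a tissue, and a call needed an adjusted p under 0.05 and a fold change of at least 1.5. The ratio of Pnpla2 to G0s2 was tested by exact permutation (scipy 1.17.1). The method was also run on simulated normal values. The outcome is not reported here, and no result above rests on it. Alternatives were a pseudocount of 0.1 CPM, no minimum or 10 CPM as the minimum mean, median-ratio scaling, lane as a covariate, a replicate block, no minimum on the fold change, scaling to adipocyte markers in WAT, and each library left out. The 10 genes, the pathway lists, the marker lists and the tests were chosen with earlier results of these data known. Genes of a list were named when called, up to 4 a list and tissue by fold change, and 1 is not reported here. Positions and exon lengths are from GENCODE M21 (GRCm38), and promoter sequences from RefSeq (GRCm38.p6).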

Additional observations from a re-analysis of the deposited data

Results flagged for a closer look

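A single library stood apart from its group in 4 of 78 groups of 4 or 5 libraries, where chance alone gives about 3.9 by Dixon's rule. This rule divides the gap to the next library by the range of the group, here both on the log2(CPM + 1) scale. In WAT, G0s2 was at 39.3 CPM in RYGB replicate 4 against 198.1 CPM in the next library (gap 0.919 of the range). In liver, Plin2 was at 275.0 CPM in sham replicate 1 against 397.0 CPM (0.845). In muscle, Mgll was at 96.6 CPM in sham replicate 3 against 42.2 CPM (0.859), in the library with the high adipocyte markers. In jejunum, Mgll was at 33.1 CPM in sham replicate 2 against 4.7 CPM (0.961).

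Mgll was higher in every RYGB library of the ileum and lower in every RYGB library of WAT, duodenum and jejunum. Its log2 fold change in ileum exceeded that in WAT by 2.01, in duodenum by 2.60 and in jejunum by 2.06. These differences between tissues were not tested.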

How the results depend on the processing

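Of 621 alternative values for the 45 fold changes, 25 lost a call, 18 gained one and 19 had the other sign, the last all of estimates that did not pass the test. With lane as a covariate 1 gene was called in WAT. Scaling to adipocyte markers left 0 in WAT and moved G0s2 to 0.12. A pseudocount of 0.1 CPM gave 2 in liver and 2 in jejunum, median-ratio scaling 0 in liver, and a minimum mean of 10 CPM 1 in ileum, since it removes Mgll. Cidec in jejunum was 0.03 and Pnpla2 in ileum 0.02 with median-ratio scaling, and Plin1 in muscle 1.38 with lane.

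The numbers did not pair the libraries (correlations of same-numbered libraries from -0.281 to 0.389, and in no tissue over 0.1 for every number). A replicate block gave 1 called gene in WAT, 3 in liver, 2 in muscle (Plin5 and Pnpla2), 2 in jejunum, 1 in ileum and 0 in duodenum.

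With each library left out in turn, 0 to 3 genes were called in WAT, 1 to 2 in liver, 0 in muscle, 0 to 2 in ileum, 1 to 2 in jejunum and 0 to 1 in duodenum. Log2 fold changes whose sign depended on 1 library were those of G0s2 in WAT (-0.49 to 0.36) and duodenum (-0.82 to 0.06), Plin1 (-0.85 to 0.70), Plin2 (-0.06 to 0.41), Plin4 (-0.07 to 0.45) and Cidec (-0.40 to 1.09) in muscle, Pnpla2 in duodenum (-0.14 to 0.21) and Cidec in jejunum (-0.34 to 0.31). The difference in the Pnpla2 to G0s2 ratio in duodenum was -0.10 to 0.91. Lane could not be fitted in duodenum, with 1 lane, or in ileum, where lane and surgery coincide. The cause of these shifts was not tested. Depth is unknown, and values under about 1 CPM are limited by rounding to 0.1.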

Other observations

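For the 5 genes listed in all 6 tissues, the genes outside the set with the most similar pattern over the 48 libraries were found among 8770 genes by Pearson's r of log2(CPM + 1). For Pnpla2 they were Adam15 (0.964), Rgs3 (0.961) and Adgrg1 (0.957), and for Lipe Sh3glb2 (0.957), Leng8 (0.948) and Traf7 (0.947). For Mgll they were Mesd (0.966), Rcbtb2 (0.961) and Anxa5 (0.960), and for Cidec Necap2 (0.949), Npdc1 (0.941) and Iqgap1 (0.940). For Plin2, the coat of droplets in most cells, they were Pex13 (0.953) and Pex3 (0.933), both of which encode proteins for the assembly of peroxisomes, and Rffl (0.924). The libraries of a tissue share its level, so these values mostly describe differences between tissues.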
